A study of Rattus norvegicus with 17 samples.

Results

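The regions described here are places in the rat genome where the transcription factor Olig2 was called in oligodendrocyte precursor cells (OPC) and again in immature oligodendrocytes (iOL), but where neither the chromatin remodeller Brg1 nor the acetylation mark H3K27Ac was called at any stage. The peaks of the OPC, iOL and mature oligodendrocyte (mOL) Olig2 lists were joined into a union wherever they overlapped or touched, which gave 31655 Olig2 regions. A region was kept when it met an OPC and an iOL Olig2 peak by at least 1 bp, no mOL Olig2 peak, no Brg1 peak of any stage and no H3K27Ac peak of any stage. This left 6635 regions, 21.0% of the union (95% interval 20.5 to 21.4). The regions were therefore chosen by the Olig2, Brg1 and H3K27Ac calls themselves, and the absence of Brg1 and H3K27Ac is not a finding. H3K4me3, H3K9me3 and RNA polymerase II (RNAPII) calls, peak width, spacing and position were not used in the choice.

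Olig2 is a basic helix-loop-helix transcription factor that specifies the oligodendrocyte lineage and stays present as precursors turn into myelin-forming cells. Brg1, encoded by Smarca4, is an ATPase of the BAF complex, which moves nucleosomes and opens chromatin. H3K27Ac marks active enhancers and promoters, H3K4me3 marks promoters, and H3K9me3 marks silenced chromatin. Transcription factors are commonly found by ChIP-seq at many places that carry no mark of active chromatin.

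The data came from wild-type Sprague-Dawley rats, whose primary cells were prepared from the cortex at postnatal day 2. The OPC libraries bear a mitogen treatment label, and the protocol's growth medium held PDGF-AA at 10 ng/ml with bFGF at 20 ng/ml. The iOL and mOL libraries bear a T3 treatment label, and the protocol's differentiation medium held the thyroid hormone T3 at 15 nM with ciliary neurotrophic factor at 10 ng/ml. The protocol text names only the immature cells as the cells grown and differentiated, so the stages are those of the sample titles. The cell types could not be checked against marker genes, because peak lists hold no expression values.

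There was 1 library and 1 list of peaks for each of the 17 combinations of target and stage, so differences rest on single libraries and carry no p-value. Percentages and medians carry exact 95% intervals over regions, which cover counting error only and treat neighbouring regions as independent. The lists give positions without read numbers, and the depth behind them is unknown. They differed in length, in the stage order OPC, iOL and mOL: 21901, 25787 and 2759 peaks for Olig2, 452, 5465 and 4378 for Brg1, and 19130, 21589 and 35268 for H3K27Ac. With an mOL Olig2 list this short, a site that lost Olig2 and a site that was missed in mOL cannot be told apart.

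The unacetylated Brg1-free regions were the most common kind of Olig2 region shared by OPC and iOL alone. Of the 13038 regions with Olig2 in OPC and iOL and not in mOL, they made up 50.9% (50.03 to 51.8). Another 3324 regions (25.5%, 24.7 to 26.3) carried H3K27Ac without Brg1, 728 (5.58%, 5.20 to 5.99) carried Brg1 without H3K27Ac, and 2351 (18.0%, 17.4 to 18.7) carried both. Over the whole union, 36.1% of Olig2 regions met H3K27Ac and 18.0% met Brg1 at some stage. These shares state what the rule took away and are given only for scale.

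A few regions lay at the edge of the rule; all coordinates are on build rn4, counted from 1. Just inside it were chr2:103332993-103334166, chr12:39356355-39357547 and chr7:117081417-117082624, which lay 9, 15 and 26 bp from an H3K27Ac peak of mOL. Just outside it were chr15:38115918-38117435, chr8:70361854-70363350 and chr5:65961974-65963265, which shared 2, 4 and 8 bp with H3K27Ac. The regions that failed by the least Brg1 were chr8:27780972-27782649, chr15:65971844-65972669 and chr6:47762502-47763996, which shared 13, 160 and 242 bp with a Brg1 peak of iOL.

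Most of the regions were a single OPC peak with a single, narrower iOL peak inside it. One peak of each stage made up 6521 of the 6635 regions (98.3%), while 92 regions were built of 3 peaks and 22 of 4. Among the 6521, the iOL peak lay wholly within the OPC peak at 6225 (95.5%, 94.9 to 96.0), and the OPC peak was the wider one at 6478. The midpoints of the paired peaks were 63.5 bp apart at the median and at most 170.5 bp apart at 90% of the regions. This form was not particular to them. Of the 728 regions with Brg1 and no H3K27Ac, 98.1% held 1 peak of each stage. The iOL peak lay within the OPC peak at 94.5% (92.6 to 96.1) of those. For the acetylated Brg1-free regions the shares were 95.3% and 89.9% (88.8 to 90.9). The greater width of OPC peaks held for the OPC list as a whole, which had a median of 1312 bp and no peak under 703 bp, against a median of 720 bp in the iOL list.

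The Olig2 peaks at these regions were narrower than those at acetylated regions and wider than those called at 1 stage alone. Widths were compared only within a list, because the lists differ in form. The OPC Olig2 peaks had a median width of 1261 bp (1256 to 1267) at the unacetylated Brg1-free regions, 1459 bp (1446 to 1471) at the acetylated Brg1-free regions with the same Olig2 pattern, and 1190 bp (1185 to 1196) at regions with Olig2 in OPC alone and neither Brg1 nor H3K27Ac. The iOL Olig2 peaks had a median of 677 bp (671 to 683) at the unacetylated Brg1-free regions, 852 bp (840 to 863) at the acetylated ones, and 612 bp (607 to 617) at unacetylated Brg1-free regions of iOL alone. The order was thus the same in both lists, and no interval overlapped another. Regions with Brg1 and no H3K27Ac lay between the unacetylated and the acetylated Brg1-free regions, with medians of 1350 bp (1333 to 1377) in the OPC list and 733 bp (707 to 752) in the iOL list. A wider peak has more bases with which to meet an H3K27Ac peak or an Olig2 peak of the other stage. How far the rule itself sets the order of widths was not tested.

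**Figure D1:**
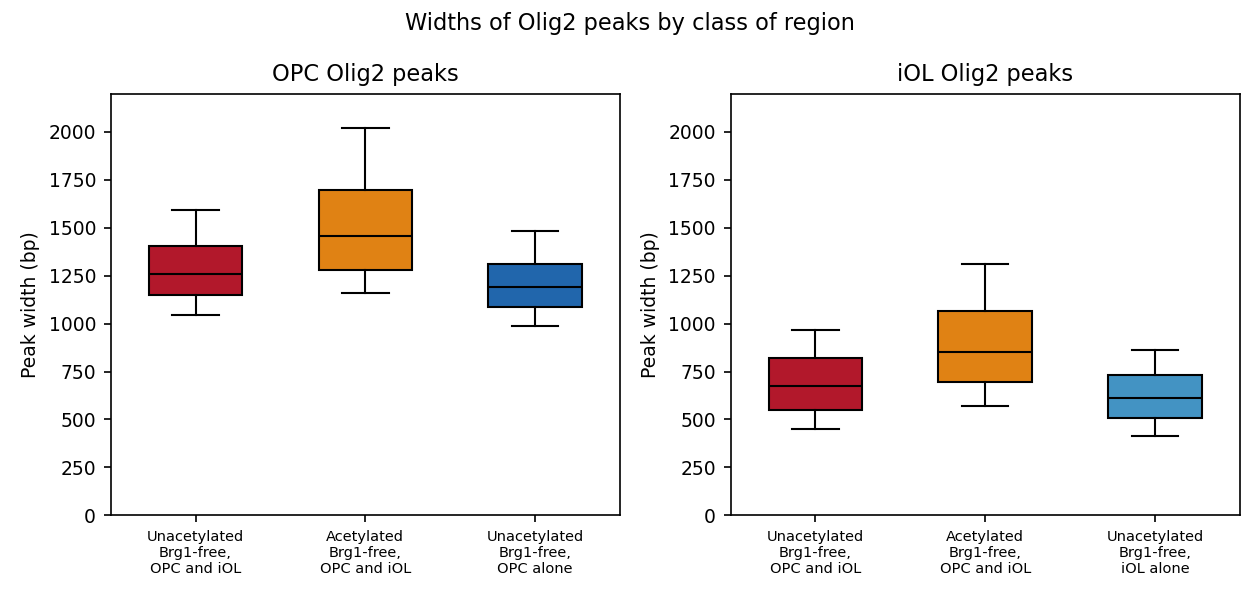
Widths in bp of OPC Olig2 peaks (left) and iOL Olig2 peaks (right) by class of region. Boxes span the 25th to the 75th percentile with the median as a line and whiskers reach the 10th and 90th percentiles over peaks; the unacetylated Brg1-free regions have medians of 1261 and 677 bp, below the acetylated regions and above the regions called at 1 stage alone.

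The joined regions had a median width of 1270 bp (1264 to 1276) and ran from 762 to 3072 bp, with 137 wider than 2 kb. The widest, chr13:66837297-66840368, joined 4 peaks over 3072 bp and lay 7.18 kb from an H3K27Ac peak of mOL and 56.2 kb from the nearest of iOL. The next were chr8:34793848-34796908 with 3061 bp, chr6:28451962-28454944 with 2983 bp, chr16:49988255-49991201 with 2947 bp and chr5:127139253-127142196 with 2944 bp. All of these were chains of 3 or 4 peaks, and their single Olig2 peaks were at most 1845 bp wide.

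Peak width also went with how often an Olig2 region escaped Brg1 and H3K27Ac. When the 13038 regions of OPC and iOL were put into 4 groups of equal size by the width of their iOL peak, the share without Brg1 and H3K27Ac was 72.2% (70.7 to 73.8) in the narrowest group, 58.9% (57.2 to 60.6) and 47.9% (46.2 to 49.6) in the groups between, and 24.5% (23.1 to 26.1) in the widest. The median iOL peak was 514 bp wide in the narrowest group and 1119 bp in the widest. H3K27Ac was met by 21.9% (20.5 to 23.4) of the narrowest group and 71.3% (69.7 to 72.8) of the widest, and Brg1 by 14.6% (13.4 to 15.8) and 35.3% (33.7 to 37.0). A wider region has more bases with which to meet a peak. Both were also judged at the middle 200 bp of each iOL peak. The share without either was then 74.2% (72.6 to 75.7) in the narrowest group and 26.3% (24.8 to 27.8) in the widest. Brg1 and H3K27Ac are the calls that the rule used, and the cause of the relation to width was not tested. With no read numbers in the lists, width cannot be told apart from signal strength or depth.

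**Figure D2:**
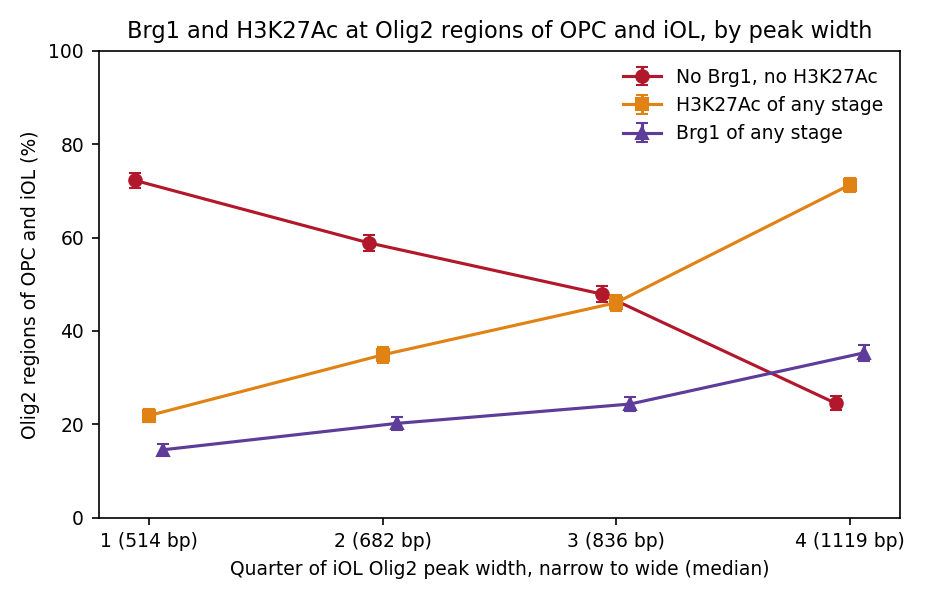
Share in percent of the 13038 Olig2 regions of OPC and iOL with neither Brg1 nor H3K27Ac (circles), with H3K27Ac (squares) and with Brg1 (triangles), in 4 groups of equal size by iOL Olig2 peak width, with bars for exact 95% intervals. The share with neither is 72.2% in the narrowest group and 24.5% in the widest, while H3K27Ac goes the other way.

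H3K4me3, the promoter mark, was almost absent from these regions. Of the 6635, 49 met an H3K4me3 peak of any stage (0.739%, 0.547 to 0.975), against 5.45% of all Olig2 regions. By stage the number was 19 in OPC, 8 in iOL and 48 in mOL, that is 0.286%, 0.121% and 0.723%, where the shares over all Olig2 regions were 3.13% in OPC, 2.81% in iOL and 5.37% in mOL. The acetylated Brg1-free regions with the same Olig2 pattern met H3K4me3 in 13.8% (12.7 to 15.1) of cases. The classes chosen by the same exclusion were close to the unacetylated Brg1-free regions of OPC and iOL: 0.585% (0.386 to 0.850) of the regions of OPC alone and 0.998% (0.769 to 1.27) of those of iOL alone, with intervals that overlapped. The low share was therefore not particular to regions with Olig2 at both stages.

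The 49 regions with H3K4me3 carried it mostly in mOL alone, the stage with the longest H3K4me3 list, of 17530 peaks. The mark was called in mOL alone at 30 of them, in OPC and mOL at 10, at all 3 stages at 8 and in OPC alone at 1. Their overlap with the mark was partial, with a median of 606 bp shared, and 28 of the 49 had less than 50% of their length covered. Many lay beside acetylated chromatin: 15 of the 49 (30.6%, 18.3 to 45.4) were within 1 kb of an H3K27Ac peak, against 153 of the 6586 regions without H3K4me3 (2.32%, 1.97 to 2.72). When regions within 1000 bp of Brg1 or H3K27Ac were left out, the share with H3K4me3 was 0.527%, and when Brg1 and H3K27Ac of OPC and iOL alone were used for the exclusion it was 1.13% (0.903 to 1.39). The widest regions marked at all 3 stages were chr8:61718815-61720175, chr14:84747169-84748485, chr10:13455451-13456737, chr1:76715568-76716754 and chr5:77053407-77054534. They lay between 6.13 and 40.8 kb from the nearest H3K27Ac peak of any stage, and at 3 of them the whole H3K4me3 peak, of 618 to 924 bp, fell inside the Olig2 region.

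H3K9me3, the mark of silenced chromatin, was as rare, but its share was near that over all Olig2 regions. An H3K9me3 peak of any stage was met by 44 of the 6635 regions (0.663%, 0.482 to 0.889), against 0.828% of all Olig2 regions. There were 15 in OPC (0.226%), 3 in iOL (0.0452%) and 29 in mOL (0.437%), and over all Olig2 regions the shares were 0.344%, 0.0821% and 0.559%. This followed the lengths of the lists, with 3149, 827 and 7103 H3K9me3 peaks. The other classes gave 0.632% (0.391 to 0.964) at acetylated regions, 0.737% (0.511 to 1.03) at regions of OPC alone and 0.421% (0.278 to 0.612) at regions of iOL alone, all with intervals overlapping that of the unacetylated Brg1-free regions of OPC and iOL. Most contacts were partial, since 38 of the 44 had less than 50% of their length covered and the median shared length was 240.5 bp. Under the stricter rule that 50% of the shorter interval be shared, the share was 0.164% (0.0818 to 0.293).

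H3K9me3 was called in mOL alone at 26 regions, in OPC alone at 12, in iOL alone at 3 and in OPC and mOL at 3. The last 3 were chr6:102675672-102677984, which shared 1043 bp with the mark, chr16:61307341-61309043, which shared 32 bp, and chr11:32859949-32861274, which shared 295 bp. The widest of the regions marked at 1 stage were chr1:215400444-215402894, which held an 882 bp H3K9me3 peak of mOL whole, and chr18:53863168-53865022, which held a 677 bp peak of OPC whole. The median distance of the 44 H3K9me3-marked regions to H3K27Ac was 38.2 kb, against 32.4 kb for the 6591 regions without H3K9me3. Within 1 kb of H3K27Ac there were 0 of the 44, with an upper limit of 8.04%, against 2.55% of the regions without H3K9me3, a difference these numbers cannot show.

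**Figure D3:**
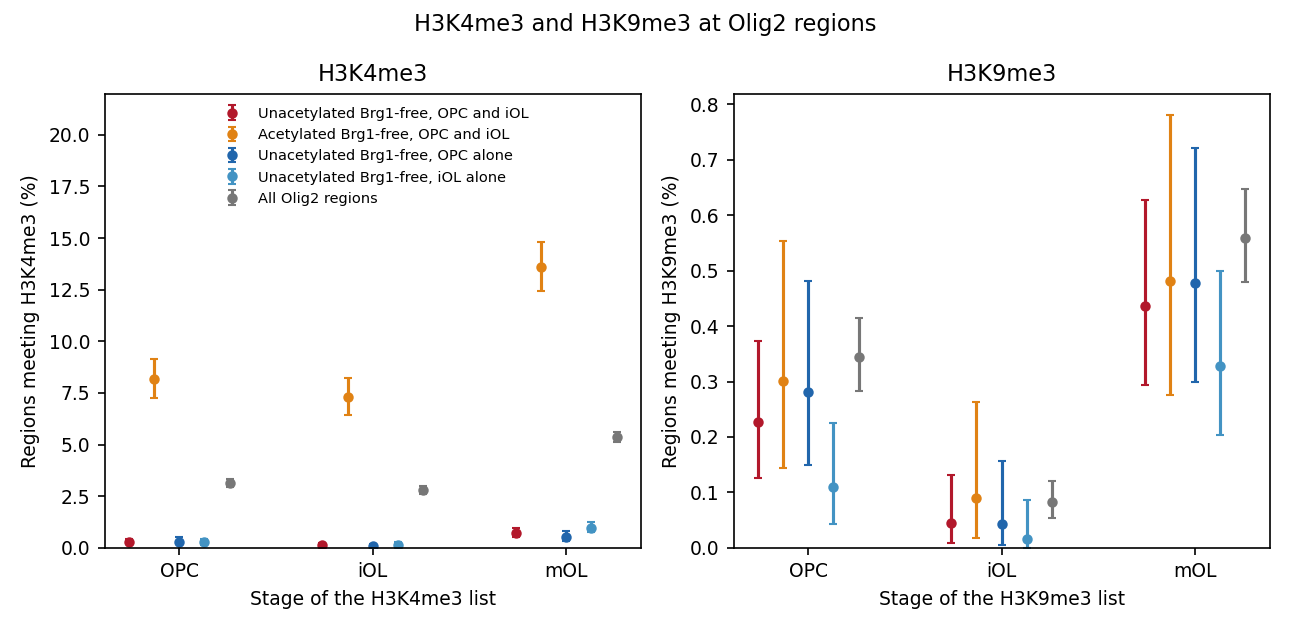
Share in percent of regions meeting H3K4me3 (left) and H3K9me3 (right) of OPC, iOL and mOL, for 5 sets of Olig2 regions, with bars for exact 95% intervals; the vertical scales of the panels differ. The unacetylated Brg1-free regions of OPC and iOL stay below 1% for both marks at every stage.

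RNA polymerase II was met by 1 of the 6635 regions, or 0.0151% (0.000382 to 0.0839), against 0.774% of all Olig2 regions. No region met 1 of the 332 OPC peaks, with an exact upper limit of 0.0556%, and over all Olig2 regions 0.0885% did. In iOL the share over all Olig2 regions was 0.72%. The single contact was at chr8:20786425-20787709, which shared 460 bp with an iOL RNAPII peak and lay 35.0 kb from the nearest H3K27Ac peak. The acetylated Brg1-free regions met RNAPII in 2.11% (1.65 to 2.65) of cases. The unacetylated Brg1-free classes of 1 stage had as few contacts, with 1 of 4613 regions of OPC alone (0.0217%) and 1 of 6415 of iOL alone (0.0156%). Among the regions with Brg1 and no H3K27Ac it was 0 of 728, with an upper limit of 0.505%, too wide to compare. In all, 6541 of the 6635 regions (98.6%) met no H3K4me3 or H3K9me3 peak of the 3 stages and no RNAPII peak of OPC or iOL. This combined share was not counted over all Olig2 regions or in the other classes. H3K4me3, H3K9me3 and RNAPII were each about as rare at unacetylated Brg1-free regions of OPC alone and of iOL alone, as given above. RNAPII in mOL was not analysed here.

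Most of these regions lay more than 10 kb and less than 100 kb from acetylated chromatin. The median distance to the nearest H3K27Ac peak of any stage was 32.4 kb (31.0 to 33.9), and the central 50% of regions lay between 11.4 and 88.8 kb. Within 1 kb there were 168 regions (2.53%), within 10 kb 1485 (22.4%) and within 100 kb 5152 (77.6%), and 33 were more than 1000 kb away. A distance above 0 is fixed by the rule, so only classes under the same exclusion were set beside them. Unacetylated Brg1-free regions of OPC alone were farther away, with a median of 43.6 kb (41.2 to 45.8), and those of iOL alone were nearer, with 23.3 kb (22.2 to 24.3).

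The same order was found against each H3K27Ac list. To the OPC list the median distance was 68.5 kb for regions of OPC and iOL, 97.7 kb for regions of OPC alone and 47.4 kb for regions of iOL alone. To the iOL list it was 65.6, 94.5 and 41.7 kb in the same order of classes, and to the mOL list it was 38.4, 50.6 and 27.2 kb. The mOL list is the longest and brings its peaks nearest in every class. H3K4me3, which the rule did not use, gave the order again: its nearest peak of any stage was at a median of 83.6 kb (79.4 to 88.0) for regions of OPC and iOL, 113.6 kb (108.8 to 119.5) for OPC alone and 59.3 kb (56.0 to 62.2) for iOL alone. Unacetylated Brg1-free sites with Olig2 at both stages thus stood between the 2 single-stage classes in their distance to H3K27Ac and H3K4me3. Promoters can carry both marks, so the orders are not independent of each other. RNAPII gave the order too, at medians of 727.5, 1014.2 and 558.6 kb in the same order of classes. H3K9me3 did not. Its nearest peak was at a median of 92.1 kb (88.7 to 95.7) for regions of OPC and iOL. For OPC alone it was at 107.3 kb (102.7 to 111.7), and for iOL alone at 95.5 kb (91.6 to 99.8).

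Distance to Brg1 differed less between the classes. The nearest Brg1 peak of any stage was at a median of 109.4 kb (105.2 to 114.4) for the regions of OPC and iOL, 112.2 kb (104.9 to 118.9) for regions of OPC alone and 103.4 kb (98.8 to 108.4) for regions of iOL alone, with intervals that overlapped. Against single lists the order was not constant. To the mOL Brg1 list the median was 204.7 kb (196.6 to 212.9) for the regions of OPC and iOL, 204.6 kb (193.8 to 214.5) for OPC alone and 188.3 kb (180.3 to 196.2) for iOL alone. To the short OPC list it was 2220 kb (2130 to 2318), 2076 kb (1961 to 2183) and 2435 kb (2336 to 2532) in the same order of classes, so that regions of iOL alone were there the farthest. Within 1 kb of a Brg1 peak there were 39 of the 6635 regions (0.588%) and within 100 kb 3132 (47.2%). Brg1 peaks are far fewer than H3K27Ac peaks, and the median distance by stage followed the length of the lists, the 452 OPC peaks being the farthest, the 4378 mOL peaks next and the 5465 iOL peaks the nearest, at 150.1 kb (144.8 to 157.97). The nearest Brg1 site was called in iOL alone for 45.1% (43.9 to 46.3) of the regions, where such sites made up 41.2% of all Brg1 sites. The share was 43.6% (42.1 to 45.0) for regions of OPC alone and 43.1% (41.9 to 44.3) for those of iOL alone. Both intervals overlapped that of the regions of OPC and iOL, so the higher share was not particular to them.

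**Figure D4:**
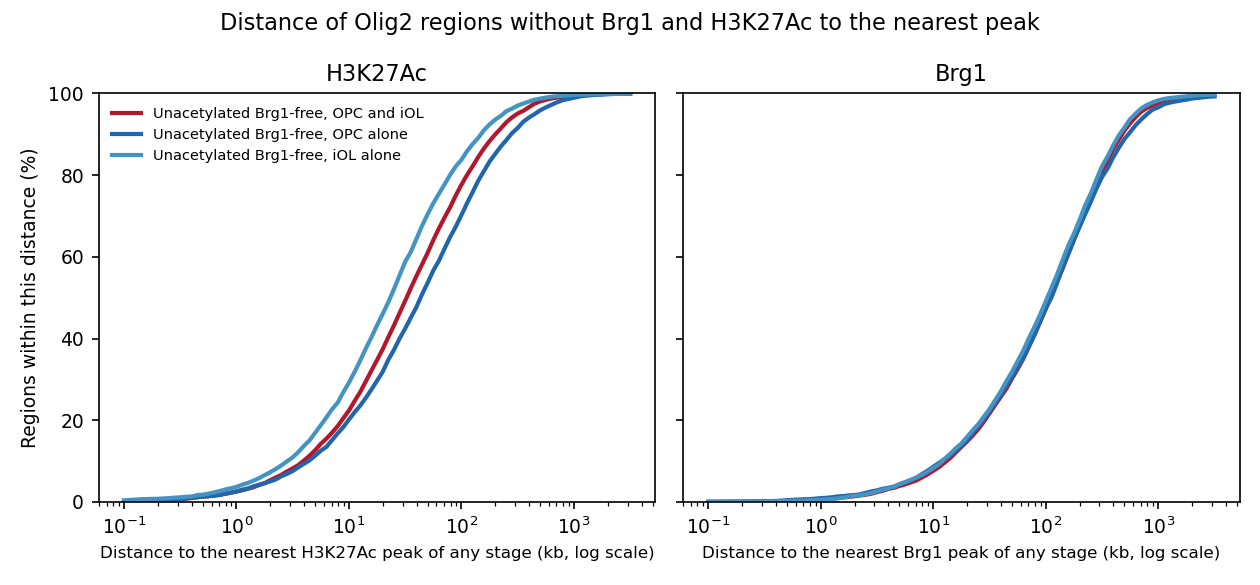
Cumulative share in percent of regions within a given distance, in kb on a log scale, of the nearest H3K27Ac peak (left) and Brg1 peak (right) of any stage, for unacetylated Brg1-free Olig2 regions of OPC and iOL, OPC alone and iOL alone. For H3K27Ac the regions of OPC and iOL run between the other classes, with medians of 32.4, 43.6 and 23.3 kb in that order of classes, and for Brg1 the medians are 109.4, 112.2 and 103.4 kb.

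The nearest acetylated place was most often one called in mOL alone, for 2545 regions (38.4%, 37.2 to 39.5), or one called at all 3 stages, for 1729 regions (26.1%, 25.01 to 27.1). Places of mOL alone make up 37.5% of all H3K27Ac regions and places of all 3 stages 32.7%, so the second kind was the nearest neighbour less often than its number. Acetylated places of OPC alone were the nearest for 7.85% (7.22 to 8.53) and make up 4.38%. The single-stage classes differed from the whole list in the same directions for both kinds. Places of all 3 stages were the nearest for 23.2% (22.01 to 24.5) of regions of OPC alone and 29.3% (28.1 to 30.4) of those of iOL alone, and places of OPC alone for 7.18% (6.45 to 7.96) and 6.75% (6.15 to 7.39). For places of mOL alone the shares were 42.6% (41.1 to 44.0) and 35.9% (34.7 to 37.0).

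The regions farthest from any acetylation were isolated in different ways. The farthest on placed sequence, chr15:73284461-73285553, was 2459 kb from H3K27Ac and 798.2 kb from Brg1, with an OPC peak of 1093 bp, an iOL peak of 475 bp and another Olig2 region 20.6 kb away. Region chr3:72390835-72392022 was 2428 kb from H3K27Ac and 2431 kb from any other Olig2 region. Region chr16:43770674-43771963 was 2158 kb from H3K27Ac but 59.3 kb from a Brg1 peak. The other 2 were chr13:3444392-3445619, at 2024 kb, and chr13:29023576-29024813, at 1902 kb. All 5 were 1 OPC peak with 1 iOL peak, between 1093 and 1290 bp wide.

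Peak width within the class had a small relation to distance. In 3 groups of equal size by iOL peak width, the median distance to H3K27Ac was 36.3 kb in the narrowest, 31.7 kb in the middle and 29.9 kb in the widest. The median distance to Brg1 was 120.8, 106.0 and 104.1 kb in that order. H3K4me3 was met by 17, 17 and 15 regions of these groups and H3K9me3 by 12, 11 and 21.

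Most of the regions were not grouped at the joining distance used, and their spacing was not set against a chance model. The next region of the same class was at a median of 95.4 kb (91.8 to 99.1), and 70 regions had one within 1 kb. Joining regions across short gaps, the widest of which was 12452 bp, gave 362 groups of 2 or more, which held 752 regions (11.3%, 10.6 to 12.1): 335 pairs, 26 groups of 3 and 1 group of 4. In the other classes 13.9% (12.8 to 15.2) of acetylated regions, 7.33% (6.59 to 8.12) of regions of OPC alone and 11.3% (10.5 to 12.1) of regions of iOL alone were grouped. These shares also depend on the number of regions in a class, which was 3324, 4613 and 6415 for the 3 in turn.

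Distance to the next Olig2 region of any kind uses 1 pool for all classes. It was 19.2 kb (18.4 to 20.0) at the median for the unacetylated Brg1-free regions of OPC and iOL, 10.6 kb (10.0 to 11.2) for acetylated ones, 22.8 kb (21.7 to 23.9) for those of OPC alone and 18.2 kb (17.3 to 18.9) for those of iOL alone. The nearest Olig2 region was itself an unacetylated Brg1-free region of OPC and iOL in 24.6% (23.6 to 25.7) of cases, where such regions make up 21.0% of the union. Around regions of OPC alone the share was 24.0% (22.8 to 25.3), so it was not particular to neighbours of the same class, and around regions of iOL alone it was 21.4% (20.4 to 22.4). The nearest region held Brg1 in 15.8% (14.9 to 16.7) of cases, where regions with Brg1 make up 18.0%. Around regions of iOL alone this share was about the same, at 15.9% (15.1 to 16.9), and around regions of OPC alone it was 18.6% (17.5 to 19.7). The nearest mOL Olig2 peak was at a median of 280.5 kb.

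The group of 4 spanned 27784 bp at chr1:215400444-215428227 and held no other Olig2 region. Its members lay between 453.3 and 478.6 kb from H3K27Ac, and the first of them is the region named above that held an H3K9me3 peak of mOL. The longest groups of 3 were chr7:36520834-36545184 and chr13:73622551-73643136. In the first, the members were 2.51, 15.3 and 25.7 kb from H3K27Ac and an Olig2 region of another class lay among them. In the second they were 19.4, 6.32 and 0.198 kb from it.

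Few of the regions sat in the gaps of acetylated stretches. When H3K27Ac peaks were joined across the same short gaps, the widest joined in OPC being 12498 bp, 41 regions fell inside a stretch of OPC (0.618%, 0.444 to 0.837), 51 inside one of iOL (0.769%, 0.573 to 1.01) and 113 inside one of mOL (1.70%, 1.41 to 2.04). Regions of OPC alone had about the same shares, of 0.564% (0.368 to 0.825), 0.585% (0.386 to 0.850) and 1.63% (1.28 to 2.03). For regions of iOL alone the shares were 0.826% (0.619 to 1.08), 1.23% (0.976 to 1.53) and 2.90% (2.50 to 3.34).

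By chromosome, the density of the regions broadly followed that of the Olig2 sites as a whole, but their share of those sites was highest on chromosome X. Over the 21 placed chromosomes there were between 1.02 and 3.11 regions per Mb, with a median of 2.53, taking the farthest peak end of any list as the length of a chromosome. Chromosome X had the lowest density, with 164 regions and 1.02 per Mb, and chromosome 10 the highest, with 344 regions and 3.11 per Mb. Olig2 regions of all kinds were also sparse on X, at 3.95 per Mb against 15.0 on chromosome 10, and so were H3K27Ac regions, at 4.57 against 23.1 per Mb. Of the Olig2 regions on X, 25.8% (22.5 to 29.4) were unacetylated Brg1-free regions of OPC and iOL, the highest share of any chromosome, and the lowest was 18.6% (15.6 to 21.99) on chromosome 12. The interval of X lay above the 21.0% of the whole union and above the median over chromosomes, of 20.8%. So did that of chromosome 17, at 23.3% (20.99 to 25.7), while that of chromosome 2 lay below both, at 19.2% (17.7 to 20.7). X was picked as the highest of 21 chromosomes, and the intervals make no allowance for that. The interval of X overlapped those of several other chromosomes. Regions on X were also the farthest from H3K27Ac, at a median of 66.7 kb, against 16.0 kb on chromosome 20. The sex of the pups was not used here. A further 22 regions lay on unplaced sequence.

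**Figure D5:**
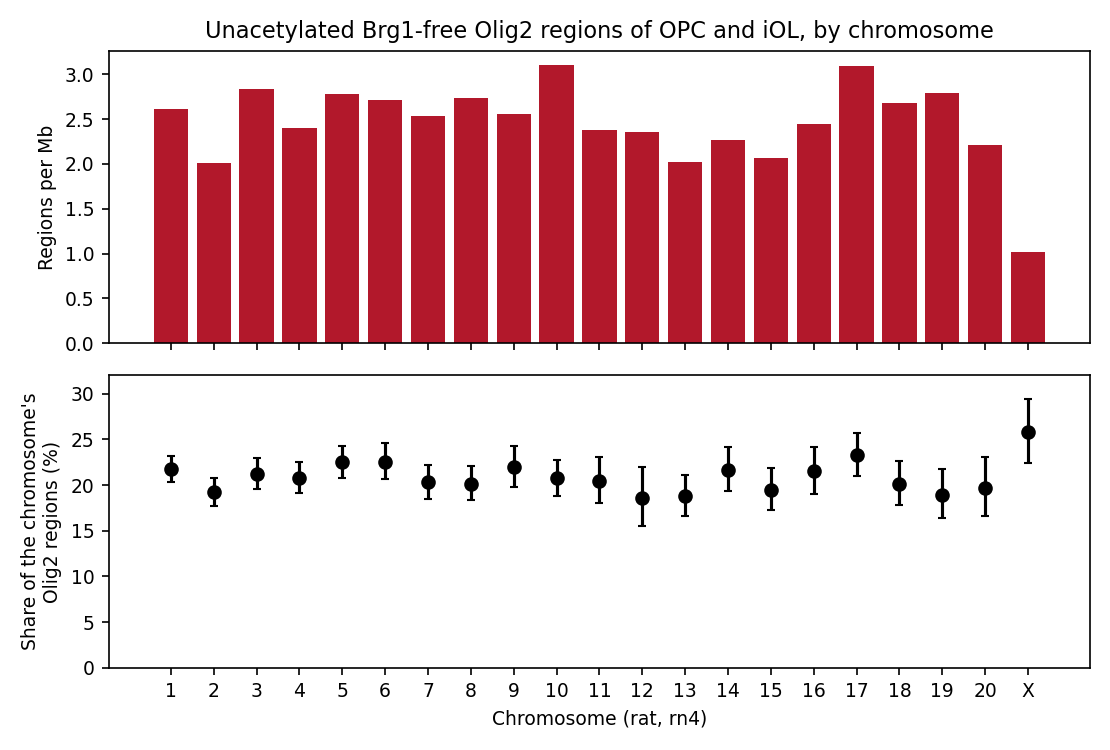
Unacetylated Brg1-free Olig2 regions of OPC and iOL per Mb of chromosome (top, bars from 0) and as a share in percent of all Olig2 regions of the chromosome (bottom, points with exact 95% intervals). Chromosome X has the lowest density, 1.02 per Mb, and the highest share, 25.8%.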

How the data were processed

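ChIP-seq of 6 targets in rat cells was analysed. Per the submitters' processing notes, MACS 1.4.0 and build rn4 were used; the aligner, threshold, control library and any pooling were not given in the sources used here. Files deposited by the authors hold 3 columns (chromosome, peak start and peak end, in bp), with no score or read number. Starts were written 1-based.

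Overlap was at least 1 bp, distances run from edge to edge, and distances to any stage use the merged lists. Intervals are exact: Clopper-Pearson for shares and order statistics for medians. Python 3.11.15, numpy 2.4.6, pandas 2.3.3, scipy 1.17.1 and matplotlib 3.10.9 were used. Overlaps, unions and distances were checked on simulated lists and with bedtools.

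The regions and comparison classes were chosen with earlier results of these data known. Named regions follow a rule: the 5 widest, the 5 farthest from H3K27Ac, the 5 widest with H3K4me3 or H3K9me3 at most stages, those with RNAPII, the 3 largest groups and those at the edge of the rule. The grouping by iOL peak width and the class with Brg1 and no H3K27Ac were added after seeing the data. No gene names or sequences were assigned, because no rn4 annotation was used. Alternatives are given in the closing section.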

Additional observations from a re-analysis of the deposited data

How the results depend on the processing

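Of 64 values (8 results under 8 alternatives), 41 stayed within the 95% interval of the value given, or within 1.5 times for the number of regions, and 23 moved. Leaving out unplaced sequence moved none. Requiring direct overlap of OPC and iOL peaks removed no region, which the joining rule nearly fixes, so its 8 equal values say nothing about stability. With the wider 50% of the OPC and iOL Olig2 lists there were 1586 regions, with H3K4me3 at 0.504%, a median width of 1493 bp, H3K27Ac at 29.1 kb, Brg1 at 103.6 kb, the next region at 369.4 kb and 4.22% in groups; fewer regions stand farther apart by construction. With the middle 200 bp of each Olig2 peak, H3K4me3 was at 0.546%, H3K9me3 at 0.156%, the width 259 bp and the grouped share 10.2%. Sharing 50% of the shorter interval gave H3K9me3 at 0.164%. Leaving out regions within 1000 bp of Brg1 or H3K27Ac gave H3K4me3 at 0.527% and H3K27Ac at 34.1 kb. With every H3K27Ac list cut to its 19130 widest peaks, H3K27Ac was at 40.2 kb, the next region at 88.2 kb and 12.2% were grouped. Excluding by OPC and iOL lists alone gave 7530 regions, H3K4me3 at 1.13%, a width of 1280.5 bp, H3K27Ac at 25.9 kb, Brg1 at 100.5 kb, the next region at 81.1 kb and 12.497% in groups. At the middle 200 bp of the iOL peak, a choice made after seeing the data, the share without Brg1 and H3K27Ac was 74.2% in the narrowest and 26.3% in the widest group. No paired analysis was possible because each target and stage has 1 library. The unknown depth of the lists limits every absent call.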
